A study of Drosophila melanogaster with 2 samples.

Results

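In Drosophila embryos, 550 peaks of toy-eGFP ChIP-seq entered the authors' pooled peak list without sharing a base with any peak of their stricter, conservative list. These peaks, here called members, were chosen by the authors' reproducibility values: a member passes the threshold of the pooled list, lies on 1 of the 7 arms and overlaps no conservative peak. The pooled list held 1895 peaks, 1883 of them on arms, and the remaining 1333 on arms shared at least 1 base with a conservative peak; the conservative list held 1404 peaks. The data came from 2 biological replicates of whole embryos aged 0 to 24 h from a transgenic strain that expresses toy fused to eGFP. Chromatin was sheared by sonication before immunoprecipitation through the GFP tag. Both replicates carry this fusion and form 1 group, so the study has no contrast between conditions, and an untagged or input control was not analysed here. The strain and its donor label were the same for both replicates, and whole embryos mix all cell types of all embryonic ages.

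Twin of eyeless (toy) encodes a Pax6-type transcription factor with a paired domain and a homeodomain, and it is known for acting at the top of the genes that specify the eye. In ChIP-seq, DNA near the tagged protein is sequenced, and a peak marks a stretch where reads pile up; its summit is the point of highest signal. The irreproducible discovery rate (IDR) scores how reproducibly a peak ranks in paired peak sets, and peaks of the thresholded lists have a value of 0.01 or less, which is 2 or more on the −log10 scale. A conservative list of this kind keeps what repeats between replicates, and the pooled list also takes peaks found once the reads are put together. The signal is the authors' own value per peak, on a scale not given in the sources used here.

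Sequence is shown around 5 summits. Each is the plus strand of the RefSeq Release 6 assembly (dm6), from 100 bases before the summit to 100 bases after it. It ends earlier where an annotated untranslated region begins. For RpS4 this cut left out the summit itself (base 13041756) and everything after it. The PlexA peak is 181 bp wide and the stronger RapGAP1 peak 110 bp, so both windows reach beyond their peaks. The TATAAA at the end of the PlexA window lies outside the peak, which ends at base 1027380. Capitals mark the DRE element TATCGATA (a core promoter sequence bound by the factor Dref), the GAGA element GAGAG, the homeodomain core TAATTA and the TATA box TATAAA, each searched on both strands. PlexA, RapGAP1 and InR are shown as the strongest off the arm from which no sequence is printed here, and PlexA is also the strongest with a DRE and the only one on chromosome 4. Plp, the strongest in coding sequence off that arm, and RpS4, the strongest at a ribosomal protein gene, were picked after their values were seen.
PlexA, promoter-proximal, chr4:1027196-1027396: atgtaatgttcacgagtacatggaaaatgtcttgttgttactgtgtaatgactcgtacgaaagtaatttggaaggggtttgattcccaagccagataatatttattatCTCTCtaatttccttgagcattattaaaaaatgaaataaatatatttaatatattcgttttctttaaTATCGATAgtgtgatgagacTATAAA
RapGAP1, promoter-proximal, chr2L:7530591-7530791: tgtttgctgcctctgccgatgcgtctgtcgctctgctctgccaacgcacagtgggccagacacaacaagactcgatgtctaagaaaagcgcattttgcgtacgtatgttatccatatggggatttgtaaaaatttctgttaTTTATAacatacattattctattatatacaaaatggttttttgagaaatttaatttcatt
InR, intron, chr3R:21590724-21590924: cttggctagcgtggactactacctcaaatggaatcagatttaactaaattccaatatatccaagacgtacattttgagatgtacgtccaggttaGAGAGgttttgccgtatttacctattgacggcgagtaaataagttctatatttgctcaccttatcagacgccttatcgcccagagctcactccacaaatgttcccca
Plp, coding sequence, chr3L:15070350-15070550: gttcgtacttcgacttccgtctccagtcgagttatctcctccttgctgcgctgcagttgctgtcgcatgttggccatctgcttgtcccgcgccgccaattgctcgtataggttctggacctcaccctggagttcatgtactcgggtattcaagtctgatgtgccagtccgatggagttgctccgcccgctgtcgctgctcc
RpS4, promoter-proximal, chr3L:13041656-13041755: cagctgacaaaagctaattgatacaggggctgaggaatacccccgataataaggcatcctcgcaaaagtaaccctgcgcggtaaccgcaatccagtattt

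The pooled signal of the 550 peaks ran from 2.14 to 312.2 with a median of 69.0, against a median of 109 over the 1333 peaks shared with the conservative list. Because the lists were made from these signals, the values describe the choice and were not tested. On the −log10 scale the pooled global IDR had a median of 2.25 and a highest value of 4.76. In the ranked list that holds the conservative peaks, 462 of the 550 had a row of their own, with a median −log10 global IDR of 1.51 and a highest of 1.99998. Just inside the pooled threshold lay pdgy at 2.00061, Alp6 at 2.00187, CG10383 at 2.00250, CG13531 at 2.00313 and for at 2.00376, and just outside it ranked peaks at mtd (1.99998) and Treh (1.99935). Just under the threshold of the conservative list lay CG4558 (1.99998) and CG31140 (1.99703), and the conservative peaks just over it were at CG14342 (2.00097) and S (2.00195).

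Signal in the ranked list of each replicate was read as the strongest ranked peak that shares a base with the pooled-list peak. In replicate 1, 534 of the 550 had such a peak, with a median signal of 35.7 and a range of 14.0 to 121.3. In replicate 2, 452 had one, with a median of 30.5 and a range of 10.2 to 112.5. None lacked a ranked peak in both replicates, 98 lacked one in replicate 2 and 16 lacked one in replicate 1. The replicate 2 ranked list was the longer, with 115142 peaks against 81037. Among the 1333 shared peaks, 7 lacked a replicate 2 peak and 2 a replicate 1 peak.

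Where both replicates had a ranked peak (436 of 550), the log2 ratio of replicate 2 to replicate 1 had a median of -0.20 with an SD of 0.92 over peaks, against 0.04 with an SD of 0.46 over 1324 shared peaks. The replicates were more than 1 log2 unit apart at 134 of the 436 (30.7%, Wilson 95% interval 26.6 to 35.2) and at 47 of the 1324 (3.55%, 2.68 to 4.69). The lower of the replicate signals had a median of 26.5 and reached 30 at 65 of the 436, while it was 28.4 or more at each of the 1324. These values follow from the choice of members, and no test was made. The pooled signal was close to the sum of both replicate signals, with a median ratio of 0.995 over the 436 and 0.997 over the 1324.

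**Figure D1:**
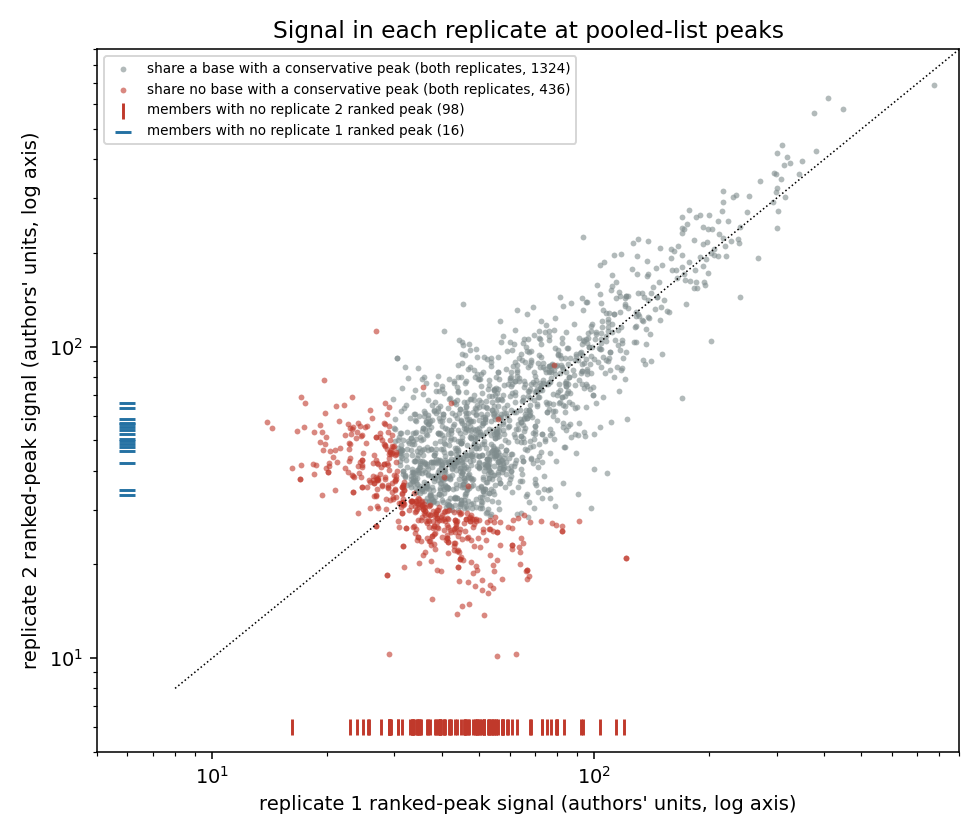
Replicate 2 against replicate 1 ranked-peak signal, both on log axes in the authors' units, for peaks that share no base with a conservative peak (red) and those that do (grey); ticks at the edges are the 98 members with no replicate 2 peak and the 16 with no replicate 1 peak. The red points lie along the lower left border and to either side of the grey cloud, and the dotted line marks equal signal.

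At the threshold of the single replicates, 103 of the 550 (18.7%, 15.7 to 22.2) shared a base with a thresholded peak of replicate 1, where the share over all 1883 pooled-list peaks on arms was 45.8%. For replicate 2 the count was 98 (17.8%, 14.8 to 21.2), where the share over all was 53.3%. Since the conservative list is made from the same replicates, nothing is read from these counts against their backgrounds. Only 3 of the 550 reached the threshold in both replicates, 100 in replicate 1 alone, 95 in replicate 2 alone and 352 in neither. Of the 1333 shared peaks, 616 reached it in both and 284 in neither. The 100 peaks of replicate 1 alone had a median signal of 55.7 there and of 24.3 in replicate 2 (63 with a ranked peak). The 95 of replicate 2 alone had a median of 51.5 there and of 24.4 in replicate 1 (84 with a ranked peak).

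The 3 peaks thresholded in both replicates lay at RapGAP1 and Pyroxd1. RapGAP1, which encodes a GTPase-activating protein for Rap, had 2 overlapping pooled-list peaks with summits 117 bp and 323 bp from its start site and pooled signals of 245.0 and 26.8. Both touched the same replicate peaks, with signals of 121.3 in replicate 1 and 21.0 in replicate 2. These ranked 147 and 16270 in their ranked lists. The ranked signal in replicate 2 was thus low, although a thresholded peak of replicate 2 shared a base with both. The cause was not tested. Pyroxd1 was even: its pooled signal was 166.6, with 78.4 in replicate 1 and 87.5 in replicate 2, at a summit 59 bp from the start site. It had thresholded peaks in both replicates and no base in the conservative list. In the ranked list that holds the conservative peaks, its −log10 global IDR was 0.15, below the threshold of 2.

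The 20 strongest of the 550 were almost all strong in replicate 1. The peak at PlexA, which encodes a plexin receptor for semaphorins, had a pooled signal of 312.2 with 114 in replicate 1 and no ranked peak in replicate 2. It lay 195 bp upstream of the start site and ranked number 94 of the pooled list. At hts, which encodes the cytoskeletal protein adducin, the pooled signal was 208.9 with 119.5 in replicate 1 and no peak in replicate 2. At InR, the insulin receptor gene, an intronic peak 633 bp from a start site had 182.1 with 103.2 in replicate 1 and no peak in replicate 2. Of the 20, 16 had no ranked peak in replicate 2, 18 reached the threshold in replicate 1, and each had a ranked peak in replicate 1.

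The other peaks among the 20 strongest that lack a replicate 2 peak lay nearest to Tret1-1 (a trehalose transporter gene; pooled signal 177.8, in an intron of Roc2), Gbs-70E (a glycogen-binding subunit of protein phosphatase 1; 150.2), PIG-Q (synthesis of membrane anchors; 149.3), yps (a Y-box RNA-binding protein; 145.9) and Hsc70-5 (a mitochondrial chaperone; 142.4). Also among them were atos (134.2), CG5096 (133.1), COX7C (129.9, in an intron of oys), sqh (the myosin regulatory light chain; 128.5), RpS4 (a ribosomal protein; 128.1), Karybeta3 (a nuclear import receptor; 127.5), muskelin (126.9) and pAbp (the poly(A)-binding protein; 124.4). Their replicate 1 signals ran from 46.3 at pAbp to 93.3 at Tret1-1. The remaining peak, at aralar1 (a mitochondrial aspartate and glutamate carrier), had a pooled signal of 123.3 with 91.1 and 27.6 in replicates 1 and 2.

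The 1 peak of the 20 that was thresholded in replicate 2 alone lay in coding sequence of otp, a homeobox gene, with Cib2 as the nearest start site at 4653 bp. Its pooled signal was 147.1, with 26.8 in replicate 1 and 112.5 in replicate 2, and its log2 ratio of 2.07 was the highest of the peaks thresholded in a replicate. Next came CG6345 (14.0 and 57.5 in replicates 1 and 2), CG10651 (17.1 and 68.8), ATbp (19.6 and 78.3) and wnd (14.4 and 54.9). The ATbp peak lay in an annotated Dm88 transposable element, 46179 bp from the ATbp start site. The CG10651 peak was intergenic, 13817 bp from the CG10651 start site, and the wnd peak lay 3603 bp from that of wnd. At these 3 peaks the nearest start site of any kind was that of a transposable element. At the other end were a peak 16982 bp from Eip75B (62.2 and 10.3; log2 ratio -2.59), the RapGAP1 pair (-2.53), Mekk1 (55.8 and 10.2) and CG2765 (51.3 and 13.8).

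**Figure D2:**
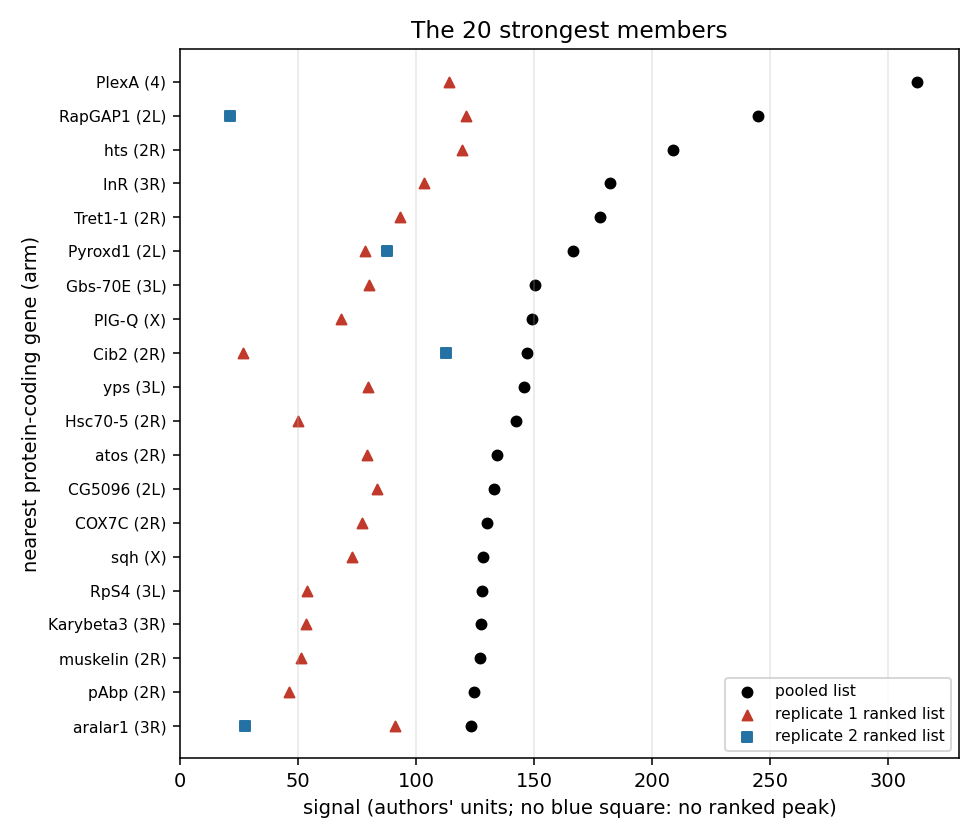
Signal in the authors' units of the 20 strongest peaks in the pooled list (black circles), the replicate 1 ranked list (red triangles) and the replicate 2 ranked list (blue squares), by nearest gene and arm. Only RapGAP1, Pyroxd1, Cib2 and aralar1 have a blue square; the other 16 have no ranked peak in replicate 2.

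The pooled signal exceeded that of replicate 1 also where replicate 2 had no ranked peak. At the 98 peaks with no replicate 2 peak, the pooled signal was a median of 1.76 times the replicate 1 signal, close to the 1.84 times at the 436 with a peak in both. At the 16 with no replicate 1 peak, the pooled signal was a median of 1.31 times the replicate 2 signal, against 2.06 times at the 436. Of the 98, 14 had a replicate 2 ranked peak within 500 bp of them. The same share was not taken over other regions, so nothing is read from this count. The 98 were promoter-proximal in 59 cases (60.2%, 50.3 to 69.3) and intergenic in 3. Over all 550 members, 45.6% were promoter-proximal and 12.7% intergenic. The 98 were set apart by replicate signal, which the choice of members also used, so nothing is read from these shares.

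By place, 251 of the 550 summits (45.6%, 41.5 to 49.8) were promoter-proximal, meaning within 500 bp of a transcription start site (TSS) of any gene. Introns held 189 (34.4%, 30.5 to 38.4), intergenic DNA 70 (12.7%, 10.2 to 15.8) and coding sequence 28 (5.09%, 3.54 to 7.26), with 8 in non-coding exons and 2 each in 5′ and 3′ untranslated regions. The promoter share was lower than the 54.5% of the 1333 shared peaks (odds ratio 0.702; Fisher's exact test, 2-sided, Benjamini-Hochberg adjusted p = 0.00195 over the 7 classes). The coding share was higher than the 0.525% of the shared peaks, 7 of 1333 (odds ratio 10.2, Fisher's exact test, adjusted p = 3.37e-09). By the same Fisher's exact test, intron (adjusted p = 0.777) and intergenic (adjusted p = 0.350) shares did not pass, and nor did the 3 small classes. Peaks are not biological replicates, and these p-values describe the lists only.

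At a global IDR of 0.001 or less, 29 members were left, and the promoter odds ratio turned to 1.70 (72.4% of the 29; Fisher's exact test, adjusted p = 0.574). This cut and the next act on pooled IDR or signal, values behind the choice of members. Any link of signal with the promoter result was not tested. Against the 667 shared peaks at or below the median shared signal, the promoter odds ratio was 0.910 (adjusted p = 0.735, Fisher's exact test), and the coding odds ratio was 7.10 (adjusted p = 2.07e-05). Restricted to peaks with a ranked peak in replicate 2, the intergenic odds ratio was 1.47 (Fisher's exact test, adjusted p = 0.0404). This filter kept 67 of the 70 intergenic members and 452 of all 550. It acts on replicate signal, which the choice of members also used, so nothing is read from this value. Among the 140118 ranked peaks that overlap no pooled-list peak, 16.0% were promoter-proximal and 19.6% in coding sequence, so the 550 lay between the weak ranked peaks and the shared peaks on both. The median pooled signal of the 550 was 70.3 in promoters, 68.2 in introns, 67.8 in intergenic DNA and 67.7 in coding sequence. Pooled signal lies behind the choice of members, so nothing is read from how close these medians are.

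**Figure D3:**
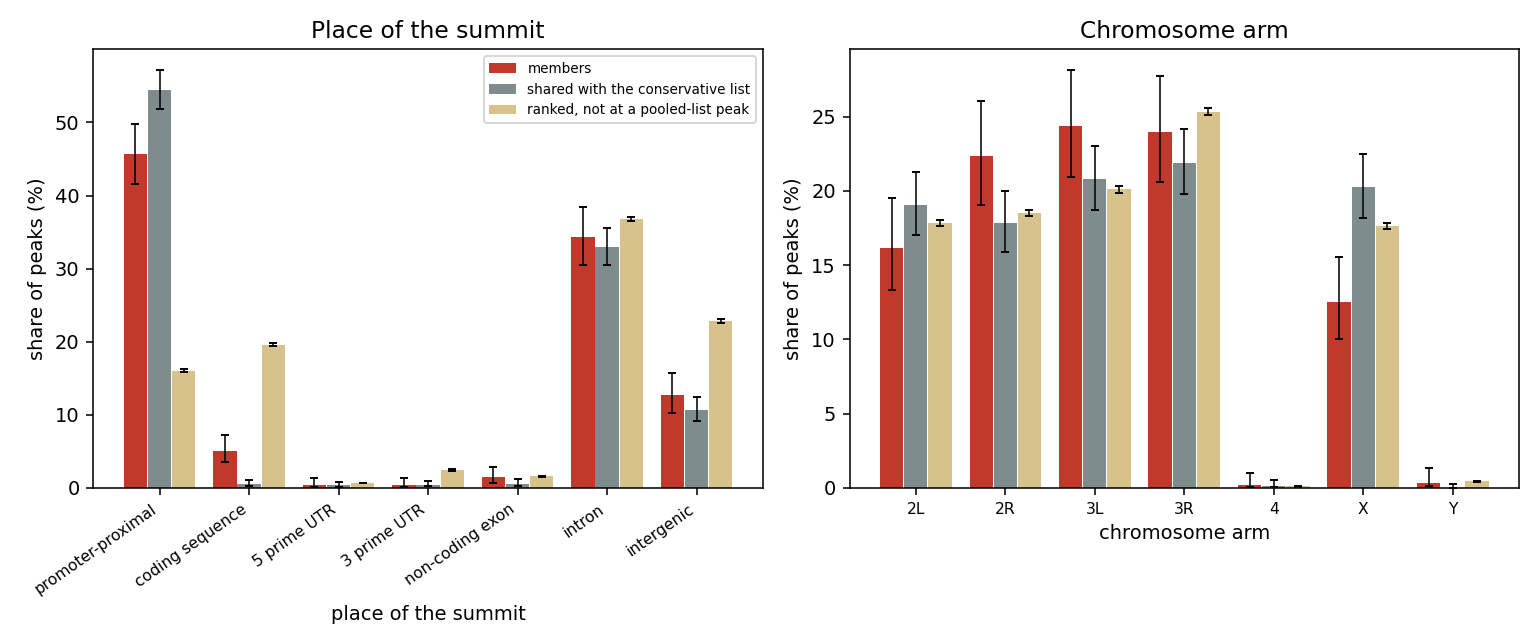
Share of peaks (%) by place of the summit (left) and by chromosome arm (right) for the 550 members (red), the 1333 peaks shared with the conservative list (grey) and the 140118 ranked peaks at no pooled-list peak (tan), with Wilson 95% intervals for counting error. Red and grey intervals are apart for promoter-proximal summits, coding sequence and the X.

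The 28 coding-sequence peaks were of ordinary strength, from 55.1 to 147.1 in pooled signal, and lay a median of 1393.5 bp from the nearest protein-coding TSS. After otp came Plp, a centrosomal protein gene (77.6; 21.6 and 47.2 in replicates 1 and 2), scyl (75.8; 38.6 and none) and CG6236 (73.6; 31.5 and 31.7). Others lay in Trl, which encodes GAGA factor (72.4), in caup, a homeobox gene of the Iroquois group (67.8), and in Gr64f, a gustatory receptor gene (63.0). Of the 28, 22 reached the threshold in neither replicate, 5 in replicate 2 alone and 1 in replicate 1 alone. None of the 28 was on the X.

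On the arms, the X held 69 of the 550 (12.5%, 10 to 15.6), less than the 270 of 1333 shared peaks (20.3%; odds ratio 0.565; Fisher's exact test, adjusted p = 3.87e-04 over 7 arms). It stayed below the shared share against the weaker shared peaks, with an odds ratio of 0.540 (Fisher's exact test, adjusted p = 6.67e-04). The X held 17.6% of the ranked peaks outside the pooled list. Arm 2R held 123 (22.4%) against 17.9% of the shared peaks (Fisher's exact test, adjusted p = 0.0997), 3L 134, 3R 132 and 2L 89, and none of these passed. The labels give no sex for the embryos.

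Chromosome 4 held 1 member, the PlexA peak, and the Y held 2. The Y peaks had pooled signals of 76.7 and 70.2 and replicate 2 signals of 63.6 and 55.4, with no ranked peak in replicate 1. The weaker of them lay in an annotated opus transposable element, and the nearest protein-coding gene of both, ARY, was 273469 and 86321 bp away. Transposable elements lay under 4 of the 550 summits (0.727%) and 5 of the 1333 shared summits (0.375%). Repeated sequence of this kind can share reads between copies, and their treatment by the authors is not stated in the labels or files.

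Near protein-coding genes, a smaller share of the summits lay upstream of the start site than among the shared peaks, and this was not tested. Of 228 summits within 500 bp of a protein-coding TSS, 156 (68.4%, 62.1 to 74.1) lay upstream, with a median signed distance of -62 bp. Of 677 such shared summits, 580 (85.7%, 82.8 to 88.1) lay upstream, with a median of -123 bp. The absolute distance had a median of 113.5 bp over the 228 and 136 bp over the 677, with SDs of 131.1 and 113.8 bp. Among the 251 promoter-proximal summits, the nearest TSS belonged to a protein-coding gene in 216 cases, a non-coding RNA in 23 and a transposable element in 7. Away from promoters, 52 of 259 intron and intergenic summits (20.1%, 15.7 to 25.4) were more than 10 kb from a protein-coding TSS, against 87 of 581 (15.0%, 12.3 to 18.1).

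**Figure D4:**
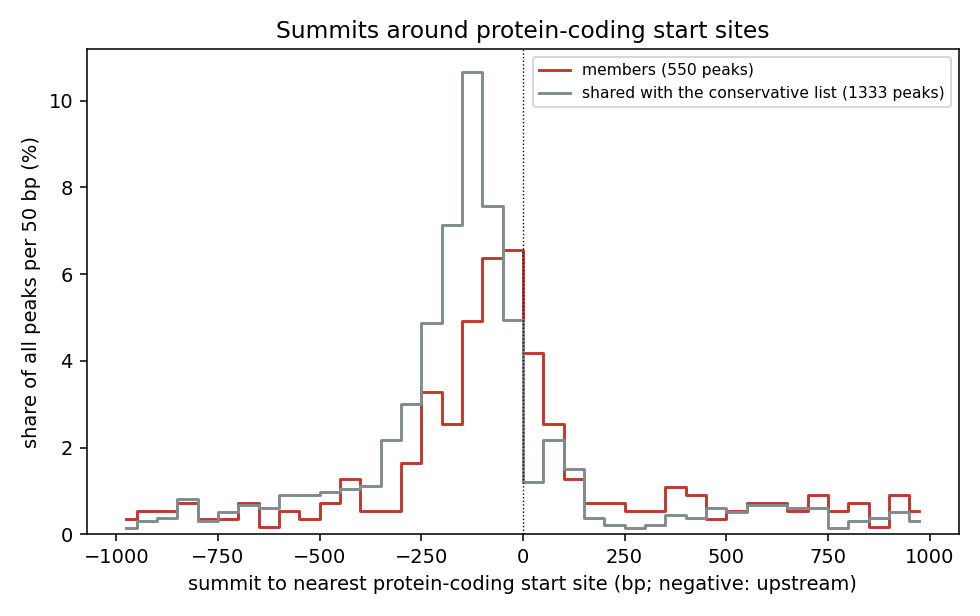
Share of all peaks (%) per 50 bp of signed distance from summit to nearest protein-coding start site, negative upstream, for the 550 members (red) and the 1333 shared peaks (grey). The red line is highest in the 50 bp before the start site and the grey line further upstream, where the medians within 500 bp are -62 and -123 bp.

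The DNA under the summits differed in base composition from that of the shared peaks. In windows reaching 100 bp to either side of the summit, mean G+C was 42.7% with an SD of 10.2 over the 550 and 36.9% with an SD of 8.04 over the 1333. Centred 1000 bp further along the arm, the means were 42.1% and 42.6%. In 51-bp windows, the shared peaks stood at 33.6% on the summit and 43.1% at 200 bp from it, and the 550 at 41.9% and 42.8%. The weaker shared peaks, at or below the median shared signal, averaged 38.8%, and the promoter-proximal summits averaged 41.8% in members against 36.1% in shared peaks. Intron summits averaged 40.7% against 37.3%, and intergenic summits 44.7% against 38.6%. No test was made of these values.

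Within the 550, base composition varied with the threshold calls of the replicates. Mean G+C was 40.6% (SD 9.61) at the 100 peaks thresholded in replicate 1 alone, 39.4% (SD 10.3) at the 95 of replicate 2 alone and 44.2% (SD 10) at the 352 thresholded in neither. The 28 coding-sequence windows averaged 58.4% (SD 5.54). The printed windows of PlexA and Plp had 28.4% and 57.2%.

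**Figure D5:**
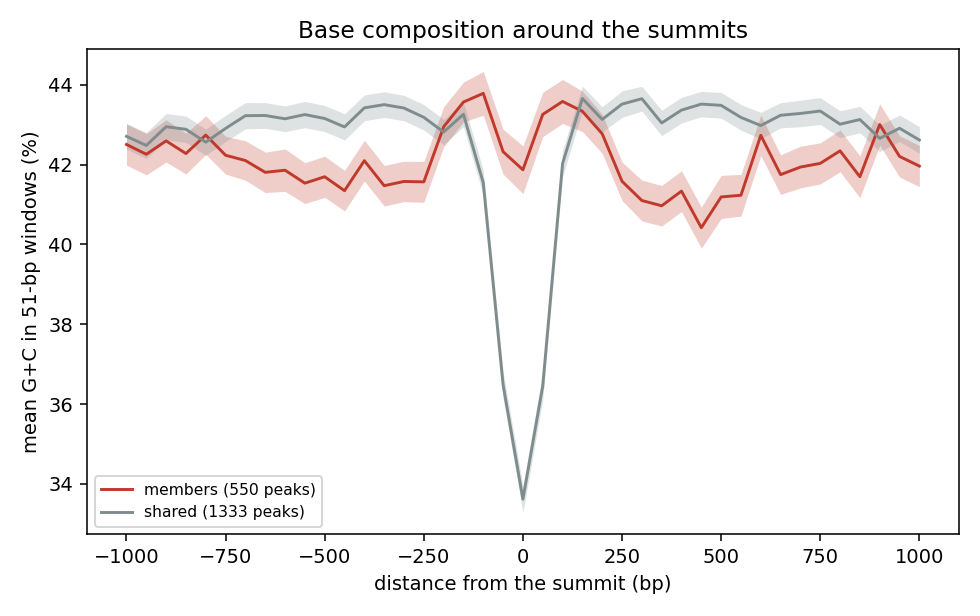
Mean G+C (%) in 51-bp windows by distance from the summit for the 550 members (red) and the 1333 shared peaks (grey); bands are the standard error over peaks. The grey line dips to 33.6% at the summit, and the red line stays at 41.9%.

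Of 11 motifs searched, DRE alone had a share on the summits whose interval missed that of windows centred 1000 bp higher on the arm. It occurred in 16 of 550 summit windows (2.91%, 1.80 to 4.67) and in 2 of the moved windows (0.364%, 0.0998 to 1.32), in 2.25% of the shared summit windows and in 6.2% of 19263 protein-coding promoter windows of the same length. In windows moved the other way the share was 1.09%, with an interval that overlaps that of the summits. Of the 16, 15 were promoter-proximal, as were 29 of the 30 shared windows with a DRE. GAGAG occurred in 152 windows (27.6%, 24.1 to 31.5) against 118 (21.5%, 18.2 to 25.1) in the moved windows, 23.6% of the shared peaks and 25.3% of promoters. It was found in 65 of the 189 intron windows (34.4%, 28 to 41.4). Among shared intron windows it was in 112 of 439 (25.5%, 21.7 to 29.8), an interval that overlaps.

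The homeodomain core TAATTA occurred in 72 windows (13.1%, 10.5 to 16.2), against 12.7% of moved windows, 16.1% of shared windows and 14.1% of promoters. TATAAA was in 148 (26.9%, 23.4 to 30.8) against 21.5% of moved windows, 35% of shared windows (32.4 to 37.6) and 33.6% of promoters. The Zelda site CAGGTAG was in 10 windows (1.82%), the E-box CAGCTG in 56 (10.2%), the E-box CATATG in 28 (5.09%) and the repeat CACACA in 102 (18.5%), against 1.19%, 12%, 5.59% and 15.1% of promoters. Motif 1 was in 4 windows (0.727%; 1.69% of promoters), the E-box of Motif 5 in 46 (8.36%; 9.64%), and the paired domain core, searched in the form known for Pax proteins, in none (0.0467%). A count of 0 in 550 windows allows a share of up to 0.545% when taken as 3 counts, and of up to 0.694% by the Wilson interval. A match of letters is not a binding site, and no match says only that these letters were not in the window.

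The 550 peaks were assigned by nearest TSS to 474 of 13968 protein-coding genes (3.39%), and 106 of the 474 (22.4%) also had a conservative peak, as did 1125 (8.05%) of all 13968. Their summits lay a median of 18.1 kb from the nearest conservative summit, and 29 lay within 1 kb of one. Of the 474, 61 had 2 or more peaks. The gene shn, which encodes a zinc-finger cofactor of Dpp signalling, had 6, with pooled signals from 15.4 to 78.2, beside 5 conservative peaks. Eip75B, an ecdysone-induced nuclear receptor, had 4 (55.0 to 77.3), CHES-1-like, a forkhead factor, had 4 (2.86 to 72.0), and ftz-f1, a nuclear receptor of moulting, had 3 (2.85 to 71.3). The kinase gene wnd had 3, with replicate 1 and 2 signals of 50.8 and none, 18.4 and 53.2, and 14.4 and 54.9, and no conservative peak. CG6739 and CG13917 also had 3 each.

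The counts of peaks per gene include second summits of the same locus. Members that share a base with another member numbered 80, and merging them left 510 loci. A pooled signal under 40 was found at 40 members, of which 37 shared a base with a stronger peak of the pooled list. The weaker peak at cnc (2.39) and those at ftz-f1 (2.85) and CHES-1-like (2.86) were of this kind. Their replicate signals are those of the stronger neighbour, since both touch the same ranked peak.

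By gene list, cytoplasmic ribosomal protein genes, the longest list, had the highest number of genes with a member: 13 of 85 (15.3%), against 3.39% of all protein-coding genes. By share, 5 shorter lists were higher, from 15.4% (Notch and EGFR signalling) to 30.8% (insulator and architectural). These lists were chosen with earlier results of the same data known, and no list was tested. A conservative peak was assigned to 31 of the 85 (8.05% of all protein-coding genes had one), and 1 gene had both kinds, so that 43 had either. The 13 ran from 62.9 to 128.1 in pooled signal with a median of 74.2. RpS4 led with 54.0 in replicate 1 and no ranked peak in replicate 2, RpS15Aa had 85.3 (27.5 and 51.2 in replicates 1 and 2) and RpLP0 80.3 (40.5 and none). Of the 13, 11 were promoter-proximal, 9 had a summit within 50 bp of the TSS, 4 lacked a replicate 2 peak and 2 reached the threshold in a replicate. The RpL4 peak was promoter-proximal only through a snoRNA, a non-coding RNA, and lay 736 bp from the RpL4 TSS. The RpL6 peak lay in the 3′ untranslated region of CycG and the RpL23 peak in coding sequence of inaD. None of 73 mitochondrial ribosomal protein genes had a member, and 2 had a conservative peak. Among translation factor genes, pAbp and eEF2 (88.8) were 2 of 14.

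Chromatin and patterning genes followed in smaller numbers, where the share over all protein-coding genes was 3.39%. The lists are short and were not tested, so nothing is read from these counts. Of 13 insulator and architectural protein genes, 4 had a member, namely BEAF-32 (76.9), lola (74.7 and 56.3), Trl (72.4) and psq (70.9), and for all but psq replicate 2 had no ranked peak. Of 10 ecdysone cascade genes there were 2, Eip75B and ftz-f1, both of which also had conservative peaks. In the list of pair-rule and segment polarity genes, 2 of 16 had a member, with nkd, an antagonist of Wnt signalling, at 109.5 (73.1 and none) and hry at 73.5. Dorsoventral and Dpp pathway genes had 2 of 17, with the repressor gene brk at 78.7 beside shn. Head gap genes had cnc (60.7; 1 of 14), Polycomb genes Sfmbt (62.5; 1 of 14), Notch and EGFR genes kek1 (74.4) and sty (68.2; 2 of 13), and cell cycle genes CycE (59.5; 1 of 17).

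Of the retinal determination genes, the best known field of toy, 1 of 15 had a member (6.67%, against 3.39% of all genes). The homeobox gene sine oculis (so) had a peak 198 bp upstream of its TSS, with a pooled signal of 50.6 and 17.1 and 41.7 in replicates 1 and 2. None of 10 Pax family genes, 8 Hox genes, 17 phototransduction genes, 13 neuroblast and proneural genes or 10 pan-neuronal genes had one. Of 12 neuroblast temporal genes, chinmo had one (114.4; 77.3 and 27.1), and of 18 axon guidance genes, PlexA and Fas3 (82.0; 29.6 and 48.1). Markers of other embryonic tissues with a member were Mef2 of 14 muscle genes (72.6), loco of 10 glial genes (54.2), ush of 8 hemocyte genes (97.7; 72.8 and 27.6), fkh and peb of 7 endoderm and fat body genes (67.3 and 66.4), and shn and bnl (58.8) of 12 epidermal and tracheal genes. Assignment by nearest TSS does not show that a peak acts on that gene.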

How the data were processed

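The deposited files are peak lists of ChIP-seq on dm6, a thresholded and a ranked list for each of 2 replicates and 2 of each for the series. Aligner, peak caller and scaling: not given in the sources used here. Per the sample descriptions, the lists of each replicate come from its own alignments and 1 further input shared by both replicates. Each list holds the authors' signal per peak and the deposited −log10 of q or of the global IDR (capped at 5). Read depth is unknown, and the list lengths replace it, namely 925 thresholded and 81037 ranked peaks for replicate 1 and 1098 and 115142 for replicate 2. Intervals cover counting error only. The authors' conservative list was set against their other thresholded list, called pooled here. The 8 last columns of each series ranked list were left out, since nothing names their replicate.

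Overlap meant any shared base. Places and genes came from Ensembl release 115 and sequences from RefSeq Release 6, which is the dm6 assembly (each peak on an arm ended within the arm). Classes and arms were compared by 2-sided Fisher's exact tests with Benjamini-Hochberg adjustment; all else is description. Python 3.11.15, pandas 2.3.3, NumPy 2.4.6, SciPy 1.17.1 and matplotlib 3.10.9 were used. The routines for overlap, place and tests were tested on simulated data. The members, gene lists, motifs and tests were chosen with earlier results of these data known. Named peaks were the 20 strongest, those on 4 and Y, those thresholded in both replicates, the 5 highest and 5 lowest replicate ratios among those thresholded in a replicate, those nearest the thresholds, up to 4 genes per list and 8 genes with most members; coding-sequence members were added after their values were seen. Of the listed gene symbols, 6 were renamed and 2 (sal and Dl) did not match. Alternatives were other overlap rules, a stricter IDR, other promoter distances, weaker comparator peaks, only peaks with a ranked peak in a given replicate, and other motif windows. Some items that this rule would name are not reported here.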

Additional observations from a re-analysis of the deposited data

Results flagged for a closer look

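Off the chromosome arms, 10 of the 12 pooled-list peaks shared no base with a conservative peak, and they were left out of the comparisons. Their pooled signals ran from 63.2 to 262.7 with a median of 76.1. They drew attention because they hold signal in data outside the main measurement, and no control was analysed against which to set it. On the arms, 550 of 1883 pooled-list peaks shared no base with a conservative peak. Of the 1404 conservative peaks, 1402 lay on arms, so nothing is read from the 10 of 12.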

How the results depend on the processing

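A global IDR of at most 0.001 left 29 members, of which 86.2% reached the replicate 1 threshold and whose median log2 ratio of replicate 2 to 1 was -1.68. In that setting the odds ratios were 1.70 (promoter), 0.787 (intron), 0 (intergenic), 12.6 (coding sequence, adjusted p = 0.568, Fisher's exact test) and 0.676 (X, adjusted p = 0.739), with few members behind each. Against weaker shared peaks the promoter odds ratio was 0.910 (adjusted p = 0.735, Fisher's exact test) and the intron odds ratio 0.851. The intron odds ratio, never past the threshold, was also below 1 with no conservative peak within 500 bp (0.987) and with a promoter distance of 250 bp (0.944). Other settings kept only peaks with a ranked peak in replicate 2, or only those with one in replicate 1. Membership was still set by lists made from both replicates, so neither setting leaves a replicate out. In that order the odds ratios were 0.614 and 0.711 (promoter), 1.10 and 1.08 (intron), 1.47 and 1.18 (intergenic), 10.6 and 10.5 (coding sequence) and 0.576 and 0.583 (X). The number of the 11 motifs whose interval on the summit missed that of the moved window was 1 (DRE), but 0 with windows of 50 bp to either side, 2 with 200 bp to either side (DRE and GAGA) and 0 with the flank toward lower coordinates. The cause was not tested. The other alternatives kept direction and side of the threshold, or stayed near the main value: 65 of 81 in all. Keeping the strongest peak of each locus, or a signal of 40 or more, was chosen after seeing the data, as were the alternatives for coding sequence and the X. No paired analysis was possible because both replicates belong to a single group. Depth is unknown, so no difference can be set against read counts.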
